A study of Mus musculus with 16 samples.

Results

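The replication-dependent histone genes encode the linker histone H1 and the core histones H2A, H2B, H3 and H4 that package newly made DNA. They were taken as every gene whose only symbol in the array's platform annotation names a numbered H1, H2A, H2B, H3 or H4 gene, which gave 26 of the 22180 genes with a probe set of their own. There were 5 H1 genes, 6 H2A genes, 8 H2B genes, 7 H4 genes and 0 H3 genes; 21 lay on chromosome 13 and 5 on chromosome 3. The rule used names and brightness only: where a gene had several probe sets, the one with the highest mean over all arrays was kept. The family itself was chosen with earlier results of these data known.

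Expression was measured on 16 gene arrays in regulatory T cells (Treg cells), the Foxp3-expressing T cells that restrain immune responses, of C57BL/6 mice. CD4+Foxp3-YFP+ cells came from the spleen and peripheral lymph nodes by sorting, and in every group they were then stimulated for 4 h on plates coated with antibodies to CD3 and CD28. The 4 groups of 4 arrays were Atg7+/- (Atg7 +/fl with Foxp3-Cre) untreated, Atg7-/- (Atg7 fl/fl with Foxp3-Cre) untreated, and the same genotypes after rapamycin, given intraperitoneally at 4 mg/kg each day for 5 days. Atg7 encodes an enzyme that autophagy needs, and rapamycin inhibits the kinase mTOR. All groups carry Foxp3-Cre, so there was no group without the recombinase, and the Atg7+/- controls themselves carry 1 floxed copy of the gene. The animals' ages are not stated, and the labels leave unsaid whether each replicate is a mouse of its own, so the p-values cover the spread among these arrays, which may be partly technical.

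Replication-dependent histone mRNAs are made as a cell copies its DNA and are degraded when copying stops. They end in a stem-loop bound by the protein SLBP instead of a poly(A) tail, and NPAT, a substrate of the cyclin E kinase, turns on their transcription at the start of S phase. In proliferating T cells their level is known to follow the share of cells in S phase. In a bulk sample, more cells in S phase and more histone mRNA per cell cannot be told apart. Some members are known for other uses: H1f6, H2ac1 and H2bc1 for packaging DNA in male germ cells, and H2bc21 for its expression in sensory neurons of the nose.

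Many core histone genes are nearly identical within a class, so a probe set can pick up several copies. No probe set was listed with several H1 genes alone. The RefSeq table holds 65 records of the whole family, H1 included. Of these, 37 were on the array only in probe sets listed with several genes, all 12 H3 genes among them. Those probe sets are described after the single genes. Of the 26 genes with their own probe set, 18 passed the filter on dim genes (highest group mean above a log2 signal of 3.549) and were tested. Of these, 15 lay above that level in all 4 groups, and H2bc21, H2bc9 and H4c1 in only some. The other 8 were H1f1, H1f6, H2ac12, H2bc1, H2bc14, H2bc22, H4c17 and H4c2.

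The promoters of 6 members are given here because these members carried most of the differences below. Each is the 150 bases before the transcription start, 5′ to 3′ on the gene's strand, from RefSeq's GRCm38.p6. Capitals mark CCAAT (or ATTGG on the other strand), the octamer ATTTGCAT known from H2B promoters, TATAAA, and AAACACA, known from H1 promoters. No letters particular to H4 promoters were searched, and the H4c12 window holds only TATAAA. Those letters begin 28 bases before the start in H1f5, 16 in H4c12 and 10 in H2bc3, and whether they act as a TATA element was not tested. No matches overlapped in these 6 windows.
H1f5, chr13:21780626-21780775, minus strand: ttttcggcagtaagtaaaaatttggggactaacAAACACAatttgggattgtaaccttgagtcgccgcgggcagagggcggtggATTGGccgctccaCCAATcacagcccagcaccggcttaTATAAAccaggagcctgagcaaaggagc
H2ac15, chr13:21753913-21754062, minus strand: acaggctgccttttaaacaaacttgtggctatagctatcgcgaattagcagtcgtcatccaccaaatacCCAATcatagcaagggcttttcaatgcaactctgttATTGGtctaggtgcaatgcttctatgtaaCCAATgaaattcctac
H2ac10, chr13:23533725-23533874, plus strand: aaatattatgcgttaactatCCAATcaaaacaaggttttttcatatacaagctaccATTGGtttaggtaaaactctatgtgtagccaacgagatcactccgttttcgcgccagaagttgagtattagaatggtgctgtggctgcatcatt
H2bc3, chr13:23746584-23746733, plus strand: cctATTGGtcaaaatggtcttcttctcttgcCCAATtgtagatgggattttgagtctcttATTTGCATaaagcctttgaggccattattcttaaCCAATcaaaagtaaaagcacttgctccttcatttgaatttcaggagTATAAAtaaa
H2bc12, chr13:22035671-22035820, plus strand: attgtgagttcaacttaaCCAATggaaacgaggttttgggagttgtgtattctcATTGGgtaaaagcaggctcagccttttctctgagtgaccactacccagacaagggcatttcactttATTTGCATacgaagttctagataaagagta
H4c12, chr13:21750554-21750703, minus strand: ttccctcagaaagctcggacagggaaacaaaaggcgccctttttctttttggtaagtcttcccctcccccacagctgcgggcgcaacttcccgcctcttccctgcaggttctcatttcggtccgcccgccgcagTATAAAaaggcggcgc

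Over the 250 bases before the start, searched on both strands, CCAAT stood in 49 of 59 histone promoters with an entry (83.1%), against 33.8% of all 32851 promoters in the table. It was in 6 of 6 H1, 17 of 17 H2A and 15 of 15 H2B promoters but in 3 of 11 H4 promoters. The octamer was in 13 of the 59 (22.0%), against 1.6% of all promoters. Of the 13, 7 were H2B promoters and 6 were H2A promoters, and the 11 H4 promoters had 0. These are not 13 separate sites, because some H2A and H2B windows overlap on opposite strands and share matches. The octamer of H2ac12 is the same stretch as that of H2bc12, and that of H2ac1 the same as that of H2bc1. Matches to CCAAT can be counted in 2 promoters in the same way. AAACACA was in 5 of 6 H1 promoters, against 6.25% of all promoters, and TATAAA in 47.5% of histone promoters, against 12.4%. These matches describe letters and no more; 24 of the 26 members had an entry.

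The array-wide context was as follows. Arrays correlated at 0.961 to 0.991 with one another over all probe sets and no 2 were identical. An array's root mean square deviation from its group mean was 0.137 to 0.242 log2 units, and the highest were rapamycin Atg7-/- replicates 3 (0.242) and 1 (0.214). The probe set of Atg7, the targeted gene, averaged 6.66 ± 0.06 and 6.38 ± 0.24 in untreated Atg7+/- and Atg7-/- cells and 6.78 ± 0.08 and 6.48 ± 0.31 after rapamycin (log2 signal, SD, n = 4). Those genotype differences were not called (adjusted p = 0.299 and 0.232), and whether its probes lie in the floxed part is not given, so this is no check of the labels. All 7 Treg markers, Foxp3 included, were above the filter level in every group. Their mean log2 signal was 10.4 to 10.8 on all arrays. The means of 4 B cell, 5 macrophage and 5 CD8 T and NK cell markers were 4.06 to 4.42, 3.92 to 4.85 and 4.42 to 4.98, with 1 of the B cell and 1 of the macrophage genes below the filter level in every group. Of the genes tested in those 3 lists and among 3 plasma cell genes and 1 erythroid gene, 0 were called between untreated genotypes. Foxp3 itself was called lower in untreated Atg7-/- cells, by 0.40 (adjusted p = 0.0355).

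In untreated cells, 3 histone genes were higher in Atg7-/- than in Atg7+/- Treg cells and 0 were lower, of 18 tested: the linker histone gene H1f5 and the H2A genes H2ac15 and H2ac10. Over all 16760 genes tested, 1.75% were called higher and 1.39% lower (adjusted p under 0.05). The groups' arrays did not overlap for 5 of the 18, all higher, against 8.17% of all genes. The median log2 fold change of the 18 was 0.34, against 0.02 over all genes, with 14 values above 0 and 4 below.

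H1f5 is one of the main linker histones of dividing cells, binding the DNA between nucleosomes. Its log2 signals were 7.47, 7.09, 7.82 and 7.34 in untreated Atg7+/- cells and 9.62, 9.78, 9.47 and 8.21 in untreated Atg7-/- cells. All Atg7-/- arrays lay above all Atg7+/- arrays, with replicate 4 closest to them. The difference was 1.84 log2 units, or 3.57-fold (SE 0.40, limma adjusted p = 0.0167). The call was lost without Atg7+/- replicate 2 (adjusted p = 0.0522), Atg7-/- replicate 1 (0.0554) or Atg7-/- replicate 2 (0.0517).

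H2ac15 encodes a core histone H2A that forms part of the nucleosome. It read 8.00, 8.39, 8.00 and 8.03 in Atg7+/- and 9.58, 9.69, 9.55 and 9.76 in Atg7-/- untreated cells. The groups lay more than 1 log2 unit apart, a 2.91-fold difference (log2 1.54, SE 0.21, adjusted p = 0.000769). H2ac10, another H2A gene, read 6.06, 6.55, 6.28 and 6.42 against 7.59, 7.53, 7.72 and 7.80. The groups again did not overlap, and the difference was 2.52-fold (log2 1.33, SE 0.12, adjusted p = 6.78e-05). Both calls held in all 26 alternatives run.

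H2bc12, an H2B gene, differed by 1.31 log2 units but was not called (adjusted p = 0.057). Its Atg7-/- arrays read 3.94, 5.93, 5.72 and 5.47 against 4.13, 4.12, 4.28 and 3.31, so replicate 1 alone lay among the controls. Without that replicate the adjusted p was 0.00442, and over all alternatives it ran from there to 0.16. H2bc3, another H2B gene, read 6.91, 6.89, 6.61 and 6.96 against 6.37, 6.03, 6.43 and 6.60. Its groups did not overlap, narrowly, and the difference of 0.49 was not called (adjusted p = 0.0762). The same held for the H2A gene H2ac20, with arrays of 7.18 to 7.49 against 6.79 to 7.09 (log2 0.47, adjusted p = 0.096). H2ac21 differed by 0.56 (adjusted p = 0.151) with Atg7-/- replicate 4 at 6.87, within the control range of 6.79 to 7.19.

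The other linker histone genes showed smaller values. H1f2 averaged 7.22 ± 0.21 in Atg7+/- and 7.57 ± 0.16 in Atg7-/- cells (SD, n = 4), and H1f3 averaged 4.36 ± 0.10 and 4.62 ± 0.14. Neither was called, at log2 differences of 0.34 and 0.27 (adjusted p = 0.523 and 0.244). H1f1 and H1f6 were below the filter level in every group. None of the 5 H4 genes tested was called between untreated genotypes, and their differences ran from -0.26 for H4c1 to 0.34 for H4c9. The H4c12 probe set averaged 9.61 ± 0.04 and 9.71 ± 0.20. The germ cell gene H2ac1 was at 4.48 ± 0.25 and 4.46 ± 0.63, a difference of -0.02.

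**Figure D1:**
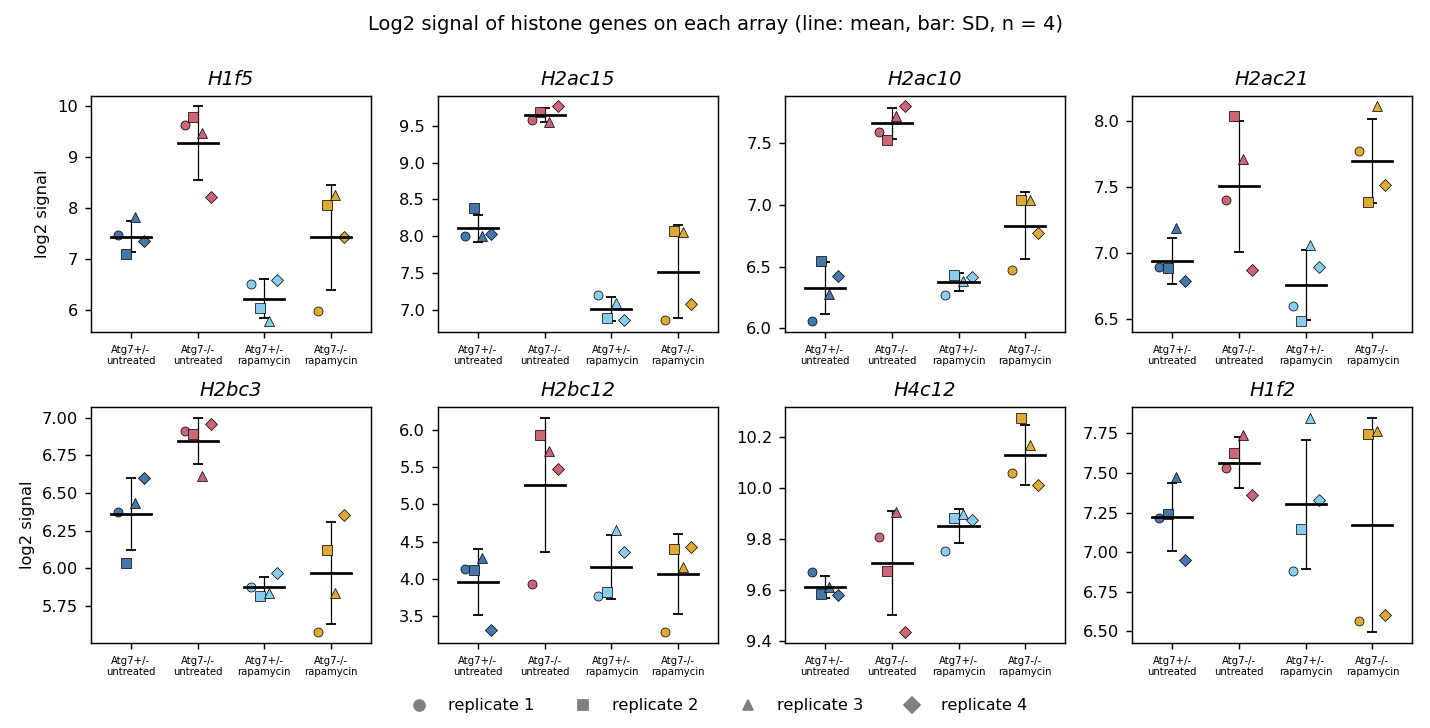
Log2 signal of 8 histone genes on each of the 16 arrays, by group; marker shapes give the replicate number, the line is the group mean and the bar its SD (n = 4). H1f5, H2ac15 and H2ac10 have their highest group mean in untreated Atg7-/- cells, H2ac21 is called higher in Atg7-/- cells under rapamycin, and H4c12 is highest on the rapamycin Atg7-/- arrays, from 10.01 to 10.27.

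Markers of cell division moved with this comparison. All 4 of the 5 listed proliferation markers with a probe set of their own (Mki67, Top2a, Birc5 and Cdk1) were called higher in untreated Atg7-/- cells, by 1.45, 1.26, 1.01 and 1.02 log2 units. The mean log2 signal of the 4 was 5.74 to 6.00 on the Atg7+/- arrays and 7.05 to 7.12 on the Atg7-/- arrays, and none of the 4 lay at or below the filter level. Of 36 DNA replication genes, 5 were higher and 0 lower, against 1.75% and 1.39% of all genes. The 5 were Ccna2 (1.19), Rrm2 (0.97), Chek1 (0.84), Cdc45 (0.59) and Mcm10 (0.37). The Rrm2 call was lost without any of 7 single untreated arrays, all but Atg7-/- replicate 1 (adjusted p = 0.0502 to 0.0933). The 5 genes encode a cyclin of S phase, a subunit of the enzyme that makes deoxynucleotides, a checkpoint kinase and factors of the replication fork. Among 19 histone chaperones, which carry histones to DNA, only Chaf1a was called (0.72, adjusted p = 0.0293), a call lost without any of 5 single untreated arrays (adjusted p up to 0.0968) and after median centring of every array (0.0526). The part of cell division in the histone differences was not tested.

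Of 16 measured genes of histone mRNA synthesis and processing, 0 were called by limma between untreated genotypes in either direction, where the shares over all genes were 1.75% higher and 1.39% lower. The stem-loop binding protein gene Slbp averaged 8.45 ± 0.10 in Atg7+/- and 8.25 ± 0.07 in Atg7-/- cells (log2 difference -0.20, adjusted p = 0.314). Npat averaged 7.60 ± 0.09 and 7.49 ± 0.15 (-0.11, adjusted p = 0.542). Of 9 other histone genes, listed here as replication-independent, 0 were called. Whether each of them is made apart from replication was not checked. H2ax, whose protein marks DNA breaks, differed by 0.27 (adjusted p = 0.422). H2aw was 0.54 lower in Atg7-/- cells without overlap and was not called (adjusted p = 0.0681), though it was under 4 alternatives (0.0379 to 0.0448).

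Under rapamycin, the genotypes differed in 1 histone gene of 18, against 1.91% of all genes called higher and 1.33% lower. H2ac21 read 6.60, 6.49, 7.07 and 6.90 in Atg7+/- and 7.77, 7.39, 8.11 and 7.52 in Atg7-/- cells. The groups did not overlap and the difference was 1.91-fold (log2 0.93, SE 0.21, adjusted p = 0.021). This call was lost without rapamycin Atg7+/- replicate 1 (adjusted p = 0.0632) or 2 (0.0955), without Atg7-/- replicate 3 (0.0634), and with only these 2 groups in the fit (0.0602). The arrays did not overlap for 3 genes that were higher and 1 that was lower, against 6.01% and 3.76% of all genes. The lower one was H4c14 (log2 -0.52, adjusted p = 0.293). The members' median was 0.08, against 0.02 over all genes.

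The genes called between untreated genotypes spread widely over the rapamycin Atg7-/- arrays. H1f5 read 6.50, 6.04, 5.78 and 6.58 in rapamycin Atg7+/- cells but 5.97, 8.05, 8.25 and 7.42 in rapamycin Atg7-/- cells, so Atg7-/- replicate 1 lay among the Atg7+/- arrays and the others above them. H2ac15 read 7.21, 6.88, 7.10 and 6.86 against 6.86, 8.07, 8.06 and 7.09. Its Atg7-/- replicates 2 and 3 stood above the other group and replicates 1 and 4 within it. H2ac10 read 6.27, 6.43, 6.39 and 6.42 against 6.48, 7.04, 7.04 and 6.77, without overlap. The differences of 1.20, 0.51 and 0.46 were not called (adjusted p = 0.104, 0.202 and 0.0534). Without Atg7-/- replicate 1 all 3 were called, at adjusted p = 0.0125, 0.0438 and 0.0165, which with H2ac21 made 4 histone genes. For H1f5 and H2ac15 this was the only alternative of 26 that gave a call, whereas H2ac10 was called under 6 of 26. Over all alternatives the highest adjusted p were 0.279, 0.484 and 0.149.

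The proliferation markers were spread in the same group. Their mean log2 signal ran from 5.31 to 6.31 over the rapamycin Atg7-/- arrays, against 5.38 to 5.92 in rapamycin Atg7+/- cells. Mki67 read 5.34, 6.79, 6.33 and 6.32 in rapamycin Atg7-/- cells, lowest in replicate 1, and 6.53, 5.55, 5.84 and 5.77 in rapamycin Atg7+/- cells. None of the 4 markers was called between genotypes under rapamycin, nor any of the 36 replication genes or 16 histone mRNA genes. Cd8b1, a CD8 T cell gene, was called higher in Atg7-/- cells there (1 of 5 in its list). The part of either in the histone values was not tested.

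**Figure D2:**
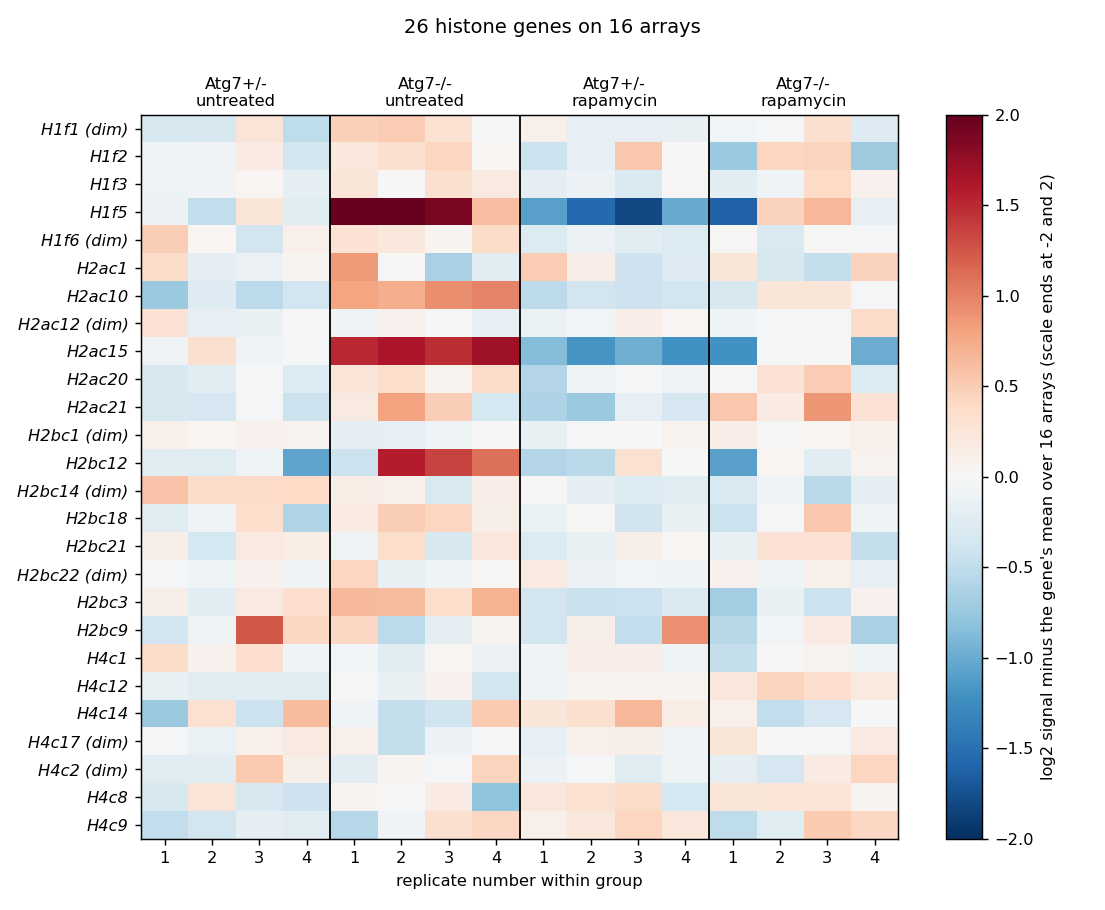
Log2 signal of the 26 histone genes (rows; dim genes marked) on the 16 arrays (columns, by group and replicate number), as the deviation from each gene's mean over all arrays. The strongest deviations are those of H1f5, H2ac15 and H2bc12, high on the untreated Atg7-/- arrays except H2bc12 in replicate 1; in rapamycin Atg7-/- cells replicate 1 is low for H1f5, at 5.97, and replicates 2 and 3 are at 8.05 and 8.25.

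In Atg7+/- cells, 2 histone genes were lower after rapamycin and 0 were higher, of 18 tested, against 8.11% of all genes lower and 6.03% higher. The share of members called, 11.1% lower, was near that background. H2ac15 fell by 1.09 log2 units, or 2.13-fold, from 8.00 to 8.39 in untreated cells to 6.86 to 7.21 (adjusted p = 0.00288). H2bc3 fell by 0.49, or 1.40-fold, from 6.03 to 6.60 to a narrow 5.82 to 5.97 (adjusted p = 0.0318). The H2bc3 call was lost without any of Atg7+/- untreated replicates 1, 3 and 4 or rapamycin replicates 1, 2 and 3 (adjusted p = 0.0624 to 0.0974).

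H1f5 was 1.21 lower after rapamycin with no overlap, from 7.09 to 7.82 to 5.78 to 6.58, and just missed the threshold (adjusted p = 0.0507). It was called under 9 of the 26 alternatives, with adjusted p from 0.00272 to 0.127. H2ac10, in contrast, averaged 6.33 ± 0.21 without and 6.38 ± 0.07 with the drug (log2 difference 0.05, adjusted p = 0.837). Of the H4 genes, H4c9 read 5.38 to 5.70 without rapamycin and 5.98 to 6.31 with it, 0.56 apart without overlap but not called (adjusted p = 0.0887). H4c12 was 0.24 apart, also without overlap and not called (adjusted p = 0.107). The arrays did not overlap for 3 members lower and 2 higher, against 13.1% and 9.64% of all genes, and the median over the 18 was -0.03, as over all genes.

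In Atg7-/- cells, 5 histone genes were lower after rapamycin and 1 was higher, against 11.1% of all genes lower and 8.83% higher. H2ac15 fell by 2.13, or 4.37-fold, from 9.55 to 9.76 to 6.86 to 8.07, without overlap (adjusted p = 7.25e-06). H1f5 fell by 1.84, or 3.59-fold (adjusted p = 0.00364), although rapamycin replicate 3, at 8.25, was just above untreated replicate 4, at 8.21. H2ac10 fell by 0.83, or 1.77-fold (adjusted p = 0.000253), from 7.53 to 7.80 to 6.48 to 7.04. H2bc3 fell by 0.87, or 1.83-fold (adjusted p = 0.000536), from 6.61 to 6.96 to 5.57 to 6.35. Both H2ac10 and H2bc3 were separated on all arrays. All of these calls held when any single array was left out.

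H2bc12 fell by 1.19, or 2.29-fold (adjusted p = 0.0267), but its untreated replicate 1, at 3.94, lay within the rapamycin range of 3.28 to 4.43. That call was lost without untreated Atg7-/- replicate 2, 3 or 4 (adjusted p = 0.0868, 0.0746 and 0.0637) or rapamycin replicate 1 (0.0814), and with only these 2 groups in the fit (0.0623). H4c12, an H4 gene, went the other way. It read 9.81, 9.67, 9.90 and 9.43 in untreated and 10.06, 10.27, 10.17 and 10.01 in rapamycin Atg7-/- cells. All rapamycin arrays lay above the untreated ones, at 1.34-fold (log2 0.42, adjusted p = 0.00517). The members' median was -0.14, against -0.04 over all genes, and 3 members lower and 1 higher did not overlap, against 11.6% and 8.76%.

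The remaining 12 genes tested were not called in this comparison. H1f2 differed by -0.40 (adjusted p = 0.282), with rapamycin arrays at 6.57, 7.75, 7.76 and 6.60. Replicates 1 and 4 were low and replicates 2 and 3 lay just above the untreated range of 7.36 to 7.74. H2ac21, higher in Atg7-/- cells under rapamycin, differed from untreated Atg7-/- cells by 0.19 (adjusted p = 0.548).

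**Figure D3:**
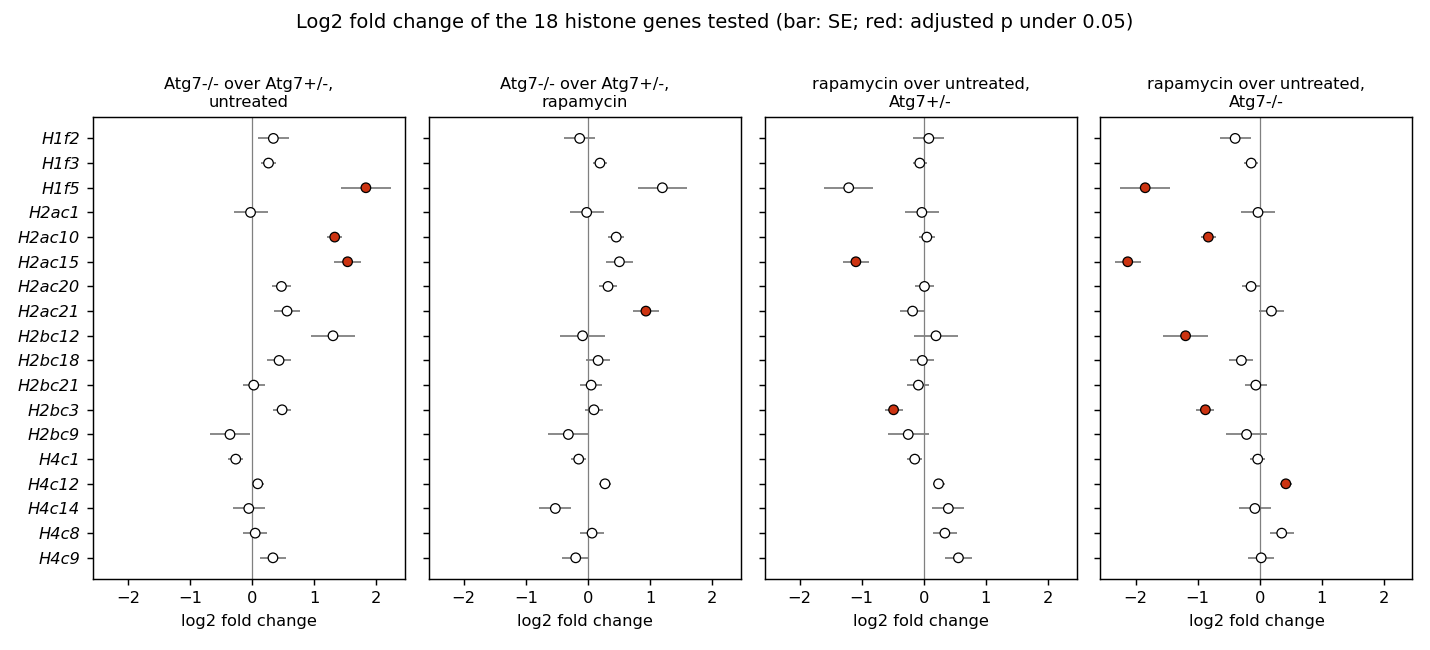
Log2 fold change of the 18 histone genes tested, with its SE, in 4 comparisons; red points have an adjusted p under 0.05. H1f5, H2ac15 and H2ac10 stand to the right in untreated cells (1.84, 1.54 and 1.33), and the same genes with H2bc3 and H2bc12 stand to the left for rapamycin in Atg7-/- cells, a comparison that shares the untreated Atg7-/- arrays with the first.

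Both comparisons that showed most calls share the untreated Atg7-/- arrays, so they are not separate evidence. Whether the drug's effect differed between genotypes is a test of its own, and 0 of the 18 histone genes and 0 of all 16760 genes were called in it. At an unadjusted p under 0.05 there were 3 histone genes and 1052 of all genes in limma. The rapamycin effect in Atg7-/- cells minus that in Atg7+/- cells was -0.88 log2 units for H2ac10 (adjusted p = 0.232), -1.03 for H2ac15 (adjusted p = 0.536) and -1.39 for H2bc12 (adjusted p = 0.69). In Atg7+/- cells the effect itself was 0.05 for H2ac10, -1.09 for H2ac15 and 0.20 for H2bc12. For H1f5 the difference was -0.64 (adjusted p = 0.882). The drug's effect on these genes was thus not shown to differ between the genotypes.

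Markers of cell division moved with rapamycin too. In Atg7-/- cells all 4 proliferation markers fell, Birc5 by 1.43 and Mki67 by 1.24. Of 36 replication genes 8 fell and 2 rose there, against 11.1% and 8.83% of all genes. Rrm2 fell by 0.87, Tk1 by 0.79 and Ccna2 by 0.79. Mcm7, a subunit of the replicative helicase, and Gins4, which joins it at the fork, rose by 0.57 and 0.64. In Atg7+/- cells only Birc5 of the 4 markers fell, by 0.67, with Tk1 lower by 0.61 and Mcm7 and Gins4 higher by 0.67 and 0.36. There the Gins4 call was lost without any 1 of the 8 Atg7+/- arrays and after median centring of every array (adjusted p up to 0.119), and the Tk1 call without rapamycin replicate 4 (0.0515). Of 7 Treg markers 1 rose and 2 fell in Atg7+/- cells, where 6.03% of all genes were higher and 8.11% lower. In Atg7-/- cells 1 of the 7 rose and 3 fell. Cd4 was lower with rapamycin by 0.67 and 0.75 in Atg7+/- and Atg7-/- cells, Cd3e by 0.55 and 0.35, and the B cell gene Pax5 by 0.30 and 0.52. Tnfrsf18 was higher by 0.29 and 0.26 (adjusted p = 0.0183 and 0.0241), and Ctla4 was lower in Atg7-/- cells by 0.37 (adjusted p = 0.0139). The part of all of these in the histone values was not tested.

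Of the 16 genes of histone mRNA synthesis and processing, 1 rose and 2 fell with rapamycin in Atg7+/- cells, and 3 rose and 4 fell in Atg7-/- cells. Over all genes 6.03% were higher and 8.11% lower in Atg7+/- cells, and 8.83% and 11.1% in Atg7-/- cells, so the counts in Atg7+/- cells lay near the background. Npat rose in both, by 0.32 (adjusted p = 0.0186) and 0.44 (adjusted p = 0.00161). Upf1, a helicase that takes part in the decay of histone mRNA when replication stops, fell by 0.35 (adjusted p = 0.0328) and 0.62 (adjusted p = 0.000611). The Npat call in Atg7+/- cells was lost without untreated replicate 4 (adjusted p = 0.0637) and after median centring of every array (0.073). The Upf1 call there was lost without any of 6 single Atg7+/- arrays (up to 0.0928) and with a length trend removed (0.0579). Slbp differed by -0.14 and 0.05 and was not called (adjusted p = 0.381 and 0.783). Of the 9 histone genes listed as replication-independent, H2ax fell in both genotypes, by 0.86 and 0.97, and H2aw rose, by 0.57 and 0.81. The H2aw call in Atg7+/- cells was lost without untreated replicate 2 or 3 or rapamycin replicate 1 (adjusted p = 0.0655 to 0.077). Of 19 chaperones 1 rose and 2 fell in Atg7+/- cells, near the shares over all genes, and 2 rose and 5 fell in Atg7-/- cells.

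The 37 probe sets listed with several histone genes gave a second view of the family, including the H3 genes. They held 34 distinct sets of values, of which 21 passed the filter: 6 of H2A genes, 6 of H2B, 5 of H3, 3 of H4 and 1 that mixed H1 and H2B genes. They cannot be assigned to single genes. They can pick up the same copies as one another or as the single genes, so their calls are not separate evidence. In untreated cells 5 were higher in Atg7-/- cells and 0 lower, against 0.703% of all 30582 probe sets tested called higher; 2 were of H2A genes and 3 of H2B genes.

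Probe set 17285691, listed with 12 H2B genes, read 9.59, 9.67, 9.85 and 9.34 in untreated Atg7+/- cells and 10.81, 10.97, 10.85 and 10.94 in untreated Atg7-/- cells. Probe set 17290997, with 4 H2B genes, read 9.71, 9.70, 9.86 and 9.75 against 10.89, 10.77, 10.74 and 10.78. The differences were 1.28 and 1.04 log2 units (adjusted p = 0.00391 and 0.00329). Among the H2A probe sets, 17291012, with 10 genes, was higher by 1.00 and 17285703, with 12 genes, by 0.78 (adjusted p = 0.002 and 0.0022). In these 4 probe sets no Atg7-/- array overlapped with the Atg7+/- arrays, and all 4 calls held in every alternative run on them. The fifth, 17285710, with 12 H2B genes, differed by 0.86 at an adjusted p of 0.0451, and 16 of 22 alternatives lost that call (up to 0.132).

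Not all probe sets listed with several H2B genes moved in the same direction, though whether they differ from one another was not tested. Probe set 17285851, listed with 3 H2B genes, was 0.94 lower in untreated Atg7-/- cells without overlap, at 5.41 to 6.14 against 6.59 to 7.25, and was not called (adjusted p = 0.208). With rapamycin it rose in both genotypes, by 1.18 in Atg7+/- cells (adjusted p = 0.0343) and by 1.41 in Atg7-/- cells (adjusted p = 0.0106). Probe set 17285834, also with 3 H2B genes, rose by 0.93 in Atg7+/- cells (adjusted p = 0.0429). Both calls in Atg7+/- cells were lost in several alternatives, 7 of 22 for 17285851 (adjusted p up to 0.0851) and 15 of 22 for 17285834 (up to 0.118). These were the only 2 probe sets of several histone genes called for rapamycin in Atg7+/- cells, against 6.29% of all probe sets higher and 5.73% lower.

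For rapamycin in Atg7-/- cells, 6 probe sets fell and 2 rose, against 8.27% lower and 7.76% higher of all probe sets. Those that fell were 3 of H2A and 3 of H2B genes, among them 17285691 by 1.00, 17290997 by 0.61, 17291012 by 0.70 and 17285703 by 0.57. Probe set 17291190, with 4 H2B genes, fell by 0.88 (adjusted p = 0.0273), a call lost without untreated Atg7-/- replicate 1, 2 or 3 (up to 0.0617). The second that rose, beside 17285851, was 17408015, listed with 8 H3 genes, by 0.83 (adjusted p = 0.0145). Its mean was 3.25 in untreated Atg7-/- cells, below the filter level, and 4.09 with rapamycin. It passed the filter only through other groups, mainly those with rapamycin, so this rise is weak evidence. The brighter H3 probe set 17400555 differed by -0.39 there and was not called by limma (adjusted p = 0.0781). The median of the 5 H3 probe sets was -0.18. Under rapamycin 0 of the 21 differed between genotypes, against 0.729% of all probe sets called higher and 0.867% lower. In limma's test of the difference between the drug's effects, 0 of the 21 were called.

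Between untreated genotypes 0 of the 5 H3 and 0 of the 3 H4 probe sets were called. Their differences ran from -0.31 to 0.61 for H3 and from -0.14 to 0.40 for H4. Probe set 17400555, with 8 H3 genes, read 7.45 to 7.61 in Atg7+/- and 7.77 to 8.07 in Atg7-/- cells, 0.42 apart without overlap (adjusted p = 0.184). Also higher without overlap, and not called by limma, were 17285680, with 4 H3 genes, and 17285706, with 6 H4 genes. They differed by 0.61 and 0.40 (adjusted p = 0.23 and 0.139). The arrays overlapped for the remaining H3 and H4 probe sets. Whether H2A and H2B differ from H3 and H4 in their response was not tested.

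**Figure D4:**
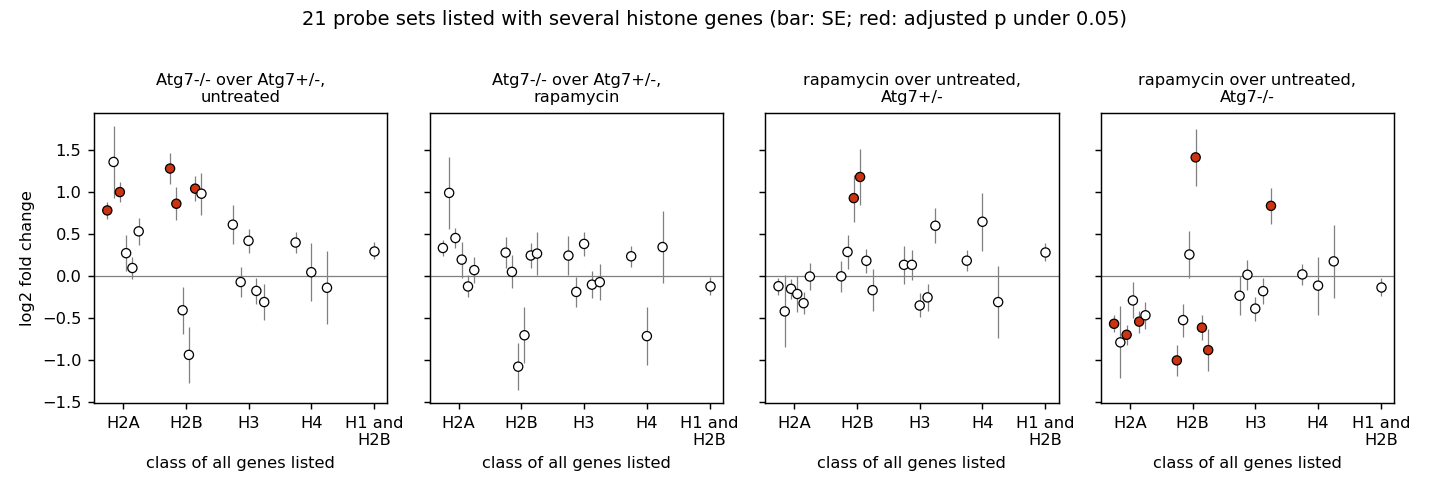
Log2 fold change, with its SE, of the 21 probe sets listed with several histone genes, by the class of the genes listed, in 4 comparisons; red points have an adjusted p under 0.05. In untreated cells the 5 called probe sets are of H2A and H2B genes, from 0.78 to 1.28, and in Atg7-/- cells rapamycin lowered 6 and raised 2.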

How the data were processed

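The table deposited by the authors holds a log2 signal for each probe set on each array. Per the submitters' processing notes RMA and Partek 6.6 were used; their settings, the genome build and any batches were not stated. A logarithm to base 2, which the file does not name, was assumed for every fold. Of 41345 probe sets, 23521 had 1 gene symbol and 1814 several. Genes were tested where the highest group mean exceeded the 30th percentile of all values. All 16 arrays entered 1 linear model with a mean for each group (limma 3.58.1, R 4.3.3, lmFit and eBayes), with 12 residual and 5.64 prior degrees of freedom. Tests were two-sided and p-values were adjusted by Benjamini-Hochberg over 16760 genes, or 30582 probe sets for those listed with several genes, and called under 0.05. The number of arrays, 4 a group, limits the precision. Tested on simulated data for the untreated comparison over 16760 genes, the fit recovered 96 of 100 genes changed by 1 log2 unit and 59 of 100 changed by 0.5, with 10 false calls.

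The members and gene lists were chosen with earlier results of these data known. Named genes were, by rule, up to 6 members called in each direction per comparison, all H1 genes and H2ac15. With under 3 called, the 3 of smallest p were taken. The rule added the brightest and dimmest member of each core class, Slbp, Npat, Mki67, and up to 3 called genes of each list. With none called in a list, it took the gene of smallest p. Several list genes that the rule gave are not described above, among them Cpsf2, Srrt, Asf1a, Supt16, Ubn1 and Ipo4. H2ac20, H4c9, H4c14, H2ac1, Cdc45, Mcm10, Top2a, Birc5, Cdk1, the lineage markers and single probe sets were named after their values were seen. So were H2ax between untreated genotypes, and Mcm7 and Gins4 in Atg7-/- cells. The rule gave H2bc12 for rapamycin in Atg7-/- cells and for the difference of effects, and H2ac21 for genotypes under rapamycin. In the other comparisons these 2 genes were named after their values were seen. The separate treatment of probe sets listed with several genes was also chosen after seeing the data. Alternatives were other normalizations, filters, moderation, array weights, blocks, a length trend, fewer groups, and each array left out. Nothing in the labels says that the replicate numbers pair arrays, so the numbers were not taken to pair them. Same-numbered arrays of different groups deviated together at r from -0.08 to 0.36 (24 pairs). For arrays of different numbers r was lower at both ends, from -0.30 to 0.24.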

Additional observations from a re-analysis of the deposited data

Results flagged for a closer look

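Of 104 sets of 4 arrays (26 histone genes in 4 groups), 11 held an array whose gap to the nearest other exceeded Dixon's critical share of the set's range, where chance gives about 1 in 20. Among genes that were tested, H2ac15 was high in untreated Atg7+/- replicate 2 (8.39, against 8.00 to 8.03 in the other arrays). H2bc12 was low in untreated Atg7+/- replicate 4 (3.31, against 4.12 to 4.28). H2ac20 and H4c12 were low in rapamycin Atg7+/- replicate 1, at 6.53 (against 7.03 to 7.06) and 9.75 (against 9.87 to 9.90). H2bc21 was low in untreated Atg7+/- replicate 2 (3.24, against 3.71 to 3.77). H4c8 was high in the same array (4.12, against 3.45 to 3.54) and low in rapamycin Atg7-/- replicate 4 (3.92, against 4.10 to 4.13).

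The other 4 were of genes below the filter level. H1f1 read 3.00 in rapamycin Atg7+/- replicate 1, above its other arrays at 2.74 to 2.76, and H2ac12 read 2.78 in rapamycin Atg7-/- replicate 4, above 2.33 to 2.39. H2bc14 read 3.35 in untreated Atg7+/- replicate 1, above 3.15 to 3.17, and 2.47 in untreated Atg7-/- replicate 3, below 2.88 to 2.92.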

How the results depend on the processing

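Among the members that the rule named, none changed direction with a call under any of the alternatives. The other members were not checked for this. No scaling moved the median of all genes by more than 0.1. For untreated genotypes array weights gave 6 calls in place of 3. For genotypes under rapamycin, 2 were called in place of 1 with quantile normalization, with the filter at the 50th percentile, with trend and robust moderation, and with the replicate number as a block, and 0 with only the 2 groups in the fit. For rapamycin in Atg7+/- cells, array weights gave 5 calls (2 higher, 3 lower) in place of 2, and only the 2 groups in the fit gave 4 (1 higher, 3 lower). For the difference of the drug's effects, the median was -0.43 in place of -0.21 with the filter at the 50th percentile, which left 12 members. The causes of the other changes were not tested.

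Leaving out 1 array at a time gave 2 to 5 calls for untreated genotypes, 0 to 4 under rapamycin, 1 to 3 for rapamycin in Atg7+/- cells, 5 to 6 in Atg7-/- cells, and 0 to 0 for the difference of effects. The medians ran from 0.24 to 0.41, 0.06 to 0.20, -0.07 to 0.05, -0.26 to -0.12 and -0.31 to -0.12 in the same order. Under the other alternatives the medians ran from 0.13 to 0.48, 0.07 to 0.24, -0.07 to -0.01, -0.34 to -0.11 and -0.43 to -0.04. The 5 calls came without rapamycin Atg7-/- replicate 1, as did the 4. Under rapamycin 2 were called without untreated Atg7+/- replicate 1. With the replicate block the counts were 4, 2, 3, 6 and 0; 8 of 16 arrays correlated best with an array of their own number, a hint from the data and not the design. Restricting the members to those above the filter level in all groups, chosen after seeing the data, left the counts at 3, 1, 2, 6 and 0. Among the probe sets listed with several genes, counts for rapamycin in Atg7+/- cells ran from 0 to 4, with the 4 without rapamycin Atg7-/- replicate 1.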
